A study of Mus musculus with 10 samples.

Results

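The genes described here are 40 genes of the lysosome and phagosome, the organelles in which a cell digests what it takes up. They were taken by name as a list of proteases, sugar and lipid enzymes, membrane proteins, proton pump subunits and other contents of the organelle, a list drawn up with earlier results of these data known. All probes annotated to them were read on all 10 arrays, and the brightest detected probe stood for each gene. Of the 40 genes, 39 had a named probe, and 37 were measured, of 9352 genes measured in all. Cd68, a membrane glycoprotein of phagocyte lysosomes, had no probe under that name in the annotation used here and was not analysed here. Ctsl, a cysteine protease, and Atp6v0d2, a proton pump subunit known from osteoclasts and macrophages, each had 1 probe that was above background on 0 of the 10 arrays.

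The arrays were Illumina Mouse-6 bead arrays of brain RNA from mice 10 weeks old, of strain C57/Bl6, that were either wild type (WT) or lacked Cd93 (KO), a gene for a surface lectin-like protein found on endothelium and on myeloid cells. Each genotype contributed 1 array of untreated brain and 1 of each hemisphere after either of the 2 protocols of middle cerebral artery occlusion (MCAo), a transient closure of that vessel as a model of stroke. The first protocol paired 60 min of occlusion with 48 h of reperfusion and the other 30 min with 72 h, so that the length of occlusion and the time of reperfusion cannot be told apart. Ipsilateral means the hemisphere of the occluded vessel and contralateral the opposite one. Each of the 10 groups was 1 array. Whether RNA was pooled over mice, and whether 1 animal gave both hemispheres, is not given in the labels, which also name no sham-operated group. Because no group was replicated, the error of every comparison is the scatter around an additive model of 5 conditions and 2 genotypes, with 4 residual degrees of freedom. Adjusted p-values are limma's, with Benjamini-Hochberg adjustment over all 9352 genes and a threshold of 0.05. A gene is called higher or lower only where it passed that threshold.

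Lysosomes are kept acid by the vacuolar proton pump, and most of their hydrolases work only at acid pH. Phagocytes deliver engulfed cells and debris to phagosomes, which mature by fusing with lysosomes. In the brain, microglia and, after injury, macrophages from the blood are the main phagocytes, and neurons and astrocytes also depend on lysosomes for turnover of their own components. Many genes of lysosomal proteins carry an E-box in the promoter, the CLEAR element, which the transcription factors TFEB and TFE3 bind. The related factor MITF also binds a motif known as the M-box, and PU.1 is a transcription factor of myeloid cells.

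Promoters of 34 of the 40 genes, 37 promoters in all, were found in the RefSeq table of build GRCm38.p6, each from 250 bases before to 50 bases after the start of transcription. Both strands were searched for the E-box core CACGTG, for TCACGTGA, which contains that core, for the M-box TCATGTGA and for the PU.1 motif GAGGAAGT. The E-box core was present in 11 of the 37 promoters (29.7%), against 7.15% of all 32851 promoters of that length. TCACGTGA was in 5 of them (13.5%, against 0.974% of all), the M-box in 4 (10.8% against 0.986%) and the PU.1 motif in 4 (10.8% against 3.2%). A match is a description of the letters and not a measured binding site. The 5 promoters below were chosen because the results differ between them. Lamp1, Mcoln1 and Ctsd carry E-boxes, and of these Ctsd passed the test between hemispheres in both protocols and the others in neither, Lamp1 narrowly so at 72 h. Ctss carries an M-box and a PU.1 motif, and Gpnmb, the gene with the largest hemisphere difference in the 72 h protocol among the 37, carries none of the 4 motifs. Capitals mark the motif matches, and in Ctss the PU.1 motif is on the opposite strand and so reads as its reverse complement. The regions are chr8:13158911-13159210, plus strand for Lamp1, chr8:3500269-3500568, plus strand for Mcoln1, chr7:142387778-142388077, minus strand for Ctsd, chr3:95526536-95526835, plus strand for Ctss and chr6:49036268-49036567, plus strand for Gpnmb.
Lamp1: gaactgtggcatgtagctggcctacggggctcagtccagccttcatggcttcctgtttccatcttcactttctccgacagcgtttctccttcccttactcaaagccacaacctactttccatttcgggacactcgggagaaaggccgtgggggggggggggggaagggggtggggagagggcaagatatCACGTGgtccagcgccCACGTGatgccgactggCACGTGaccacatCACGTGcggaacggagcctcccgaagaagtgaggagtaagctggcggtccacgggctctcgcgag
Mcoln1: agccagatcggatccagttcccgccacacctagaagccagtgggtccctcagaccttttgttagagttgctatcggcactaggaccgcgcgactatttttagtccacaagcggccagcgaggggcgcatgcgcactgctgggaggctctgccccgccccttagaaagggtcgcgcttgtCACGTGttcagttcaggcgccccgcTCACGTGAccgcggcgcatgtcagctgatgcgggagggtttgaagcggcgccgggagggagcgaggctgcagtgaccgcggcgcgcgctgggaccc
Ctsd: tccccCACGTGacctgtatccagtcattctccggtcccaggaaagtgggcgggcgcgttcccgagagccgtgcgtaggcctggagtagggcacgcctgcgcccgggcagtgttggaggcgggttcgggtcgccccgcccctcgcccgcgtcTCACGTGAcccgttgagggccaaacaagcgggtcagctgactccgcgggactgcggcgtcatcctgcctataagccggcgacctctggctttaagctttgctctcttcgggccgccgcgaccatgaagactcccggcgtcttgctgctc
Ctss: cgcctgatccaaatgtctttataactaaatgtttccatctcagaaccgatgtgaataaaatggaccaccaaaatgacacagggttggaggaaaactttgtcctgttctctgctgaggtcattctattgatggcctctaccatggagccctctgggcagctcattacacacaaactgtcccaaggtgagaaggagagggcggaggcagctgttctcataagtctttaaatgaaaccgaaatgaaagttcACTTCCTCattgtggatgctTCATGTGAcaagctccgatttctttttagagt
Gpnmb: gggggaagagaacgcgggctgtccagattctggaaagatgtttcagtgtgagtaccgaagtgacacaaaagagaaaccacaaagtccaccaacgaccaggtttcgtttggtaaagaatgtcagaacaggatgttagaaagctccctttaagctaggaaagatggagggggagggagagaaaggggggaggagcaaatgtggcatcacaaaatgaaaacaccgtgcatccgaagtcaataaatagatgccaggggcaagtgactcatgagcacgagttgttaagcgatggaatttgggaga
Counted from the start site, the 4 E-box cores of Lamp1 begin at -61, -45, -28 and -15, those of Mcoln1 at -71 and -45, and those of Ctsd at -245 and -98.

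Many lysosomal genes were higher in the injured hemisphere after both protocols, Gpnmb and the lysozyme gene Lyz2 by the most among the 37, with cathepsin genes among the next, and none of the 37 was lower. In the 48 h protocol 18 were higher in ipsilateral than in contralateral tissue, 0 were lower and 19 did not pass, where 12.7% of all genes measured were higher and 8.06% lower. In the 72 h protocol 21 were higher, 0 lower and 16 did not pass, against 10.3% and 4.13% of all genes. The median difference of the 37 genes was 0.30 on the log2 scale at 48 h and 0.55 at 72 h, beside medians of -0.02 and -0.05 over all genes. The same 18 genes passed in both protocols, and Hexa, Man2b1 and Tpp1 passed at 72 h but not at 48 h, although none of them passed a test of the 72 h against the 48 h difference. In 19 of the 37 genes all 4 ipsilateral arrays lay above all 6 other arrays, a pattern found in 11.6% of all genes, and in 0 of them did all 4 lie below, a pattern found in 8.83%. Ctss is counted in the 18, the 21 and the 19, although it passed the detection filter only through the 4 ipsilateral arrays.

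**Figure D1:**
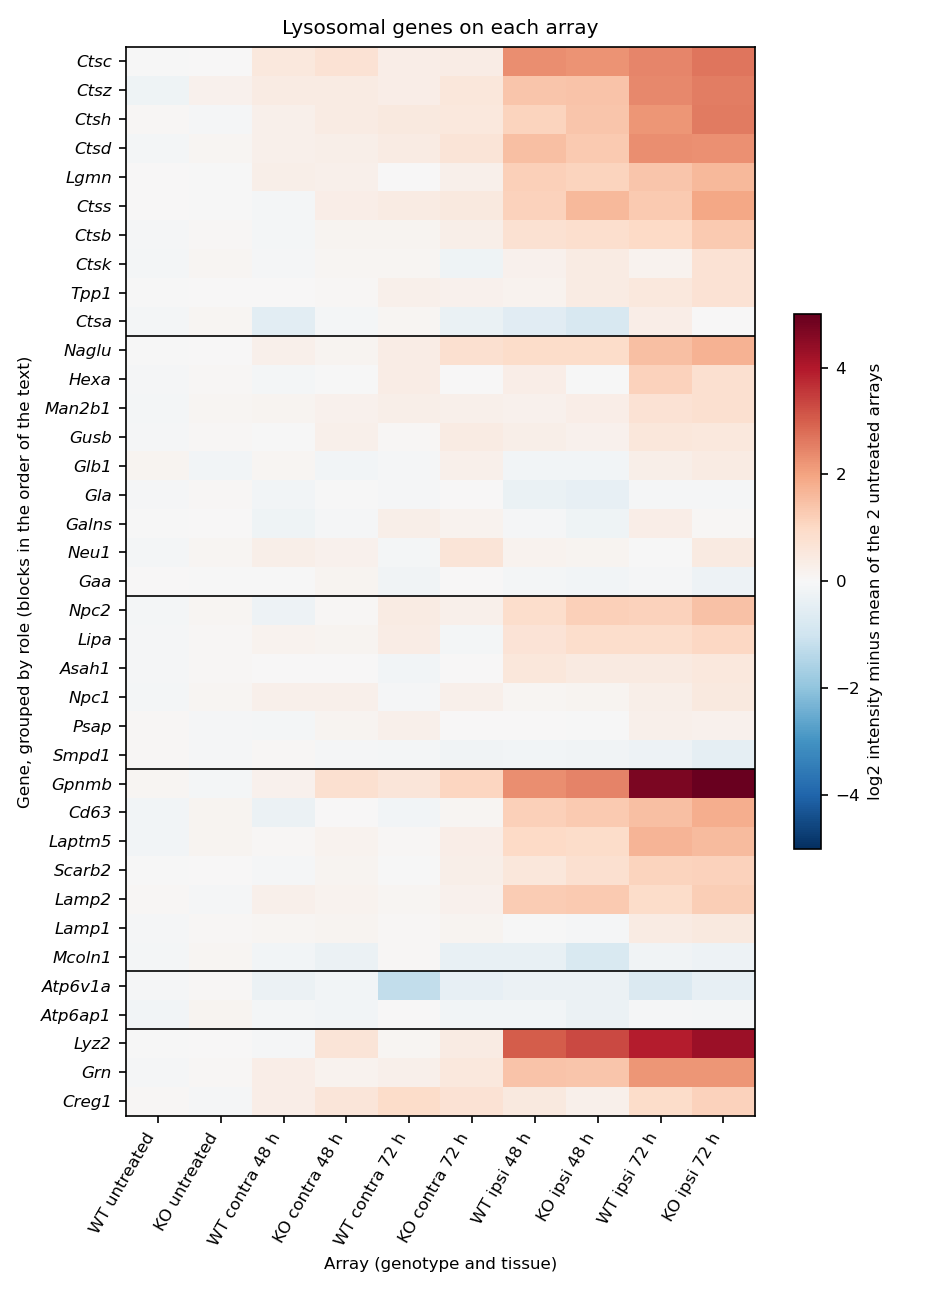
Each row is 1 of the 37 measured genes and each column 1 of the 10 arrays, and the colour is the log2 intensity minus the mean of the 2 untreated arrays of that gene. Black lines separate, from the top, proteases, sugar-cleaving enzymes and sulfatase, lipid enzymes and lipid transfer, membrane proteins, proton pump and other contents. The 4 ipsilateral columns on the right carry most of the colour, strongest for Gpnmb and Lyz2.

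**Figure D2:**
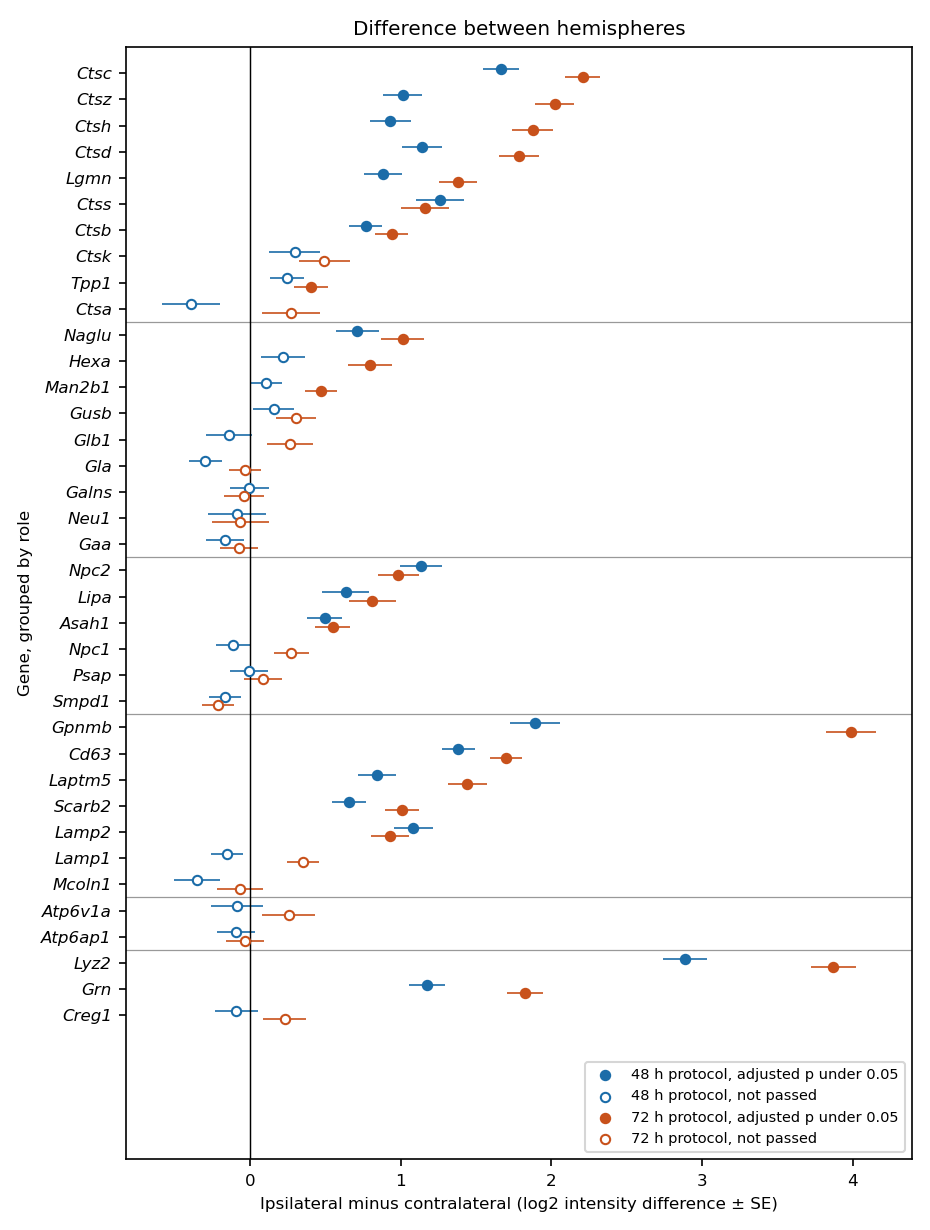
Points are the ipsilateral minus contralateral difference (log2 intensity) of each gene, with bars for the standard error, in the 48 h protocol (blue) and the 72 h protocol (orange). Filled points passed an adjusted p of 0.05. All filled points lie to the right of 0, and the proton pump block holds none.

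Marker genes of other cells moved between the same tissues. The summed intensity of 9 measured markers of resting microglia was 3075 to 3635 on the 6 untreated and contralateral arrays, 5293 and 6090 on the KO and WT 48 h ipsilateral arrays and 8315 and 9420 on those of the 72 h protocol. Of these 9 markers, 5 were higher ipsilaterally at 48 h and 7 at 72 h, while P2ry12 did not pass the detection filter. Beside this and the marker counts below, 12.7% of all genes were higher and 8.06% lower at 48 h, and 10.3% and 4.13% at 72 h. Of 12 markers of recruited monocytes and macrophages only Arg1, Mrc1 and Lyve1 were measured, and their sum was 85.1 to 112 on the 6 other arrays, 360.1 and 415.3 at 48 h ipsilaterally, and 182.8 in the WT and 568.1 in the KO at 72 h. Ccr2, Vcan, Plac8, Ms4a4c, Ly6i and Cd209a did not pass the filter, and Ly6c2, Chil3 and F13a1 had no named probe. The sum therefore rests on 3 genes of the list and is not a measure of recruited monocytes. The 5 measured of 11 neutrophil markers summed to 435.3 and 864.7 at 48 h and 270.0 and 594.8 at 72 h in WT and KO ipsilateral tissue, but also to 465.0 in the KO 48 h contralateral array, against 167 to 221.8 on the remaining 5. Of the 5 neutrophil markers, 2 were higher ipsilaterally and 1 lower at 48 h, and 1 was higher and 0 lower at 72 h. The 14 measured of 15 neuronal markers summed to 47590 to 53000 ipsilaterally and 56360 to 59550 elsewhere. Sums of 3 further lists were also higher on each of the 4 ipsilateral than on each of the 6 other arrays. They were 4842 to 7870 against 3763 to 4629 for 9 endothelial markers, 27750 to 31200 against 21460 to 24280 for 9 astrocyte markers and 40320 to 42950 against 31820 to 35940 for 11 oligodendrocyte markers. Of these, 5, 3 and 3 markers were higher at 48 h, with 1, 1 and 0 lower, and 5, 3 and 5 were higher at 72 h, with 0 lower. Sums of the 2 measured lymphocyte and the 3 measured red blood cell markers overlapped between these arrays. The part of these cells in the results on lysosomal genes was not tested, and in whole tissue a change in the number of cells of a type and a change in RNA per cell cannot be told apart. The arrays had 12811 to 16310 probes above background, most on the 48 h ipsilateral arrays, and 34 to 37 of the 37 genes were detected on each. Cd93 itself was lower in KO than in WT, with a log2 difference of -1.53 (adjusted p = 0.00221). Its probe was at background on the KO untreated and contralateral arrays, at 6.23 and 6.24 on the KO ipsilateral arrays, and at 6.17 to 8.66 on the 5 WT arrays.

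Among the proteases, 7 of the 10 measured were higher ipsilaterally at 48 h and 8 at 72 h, beside 12.7% and 10.3% of all genes. The medians of the 10 were 0.91 and 1.27. Values below are log2 intensities, WT before KO, and levels of different genes are not compared because each comes from its own probe. Ctsc encodes a dipeptidyl peptidase that activates serine proteases of immune cell granules. Its intensity was 6.56 and 6.6 in untreated brain, 7.11 and 7.29 in the 48 h and 6.93 and 6.94 in the 72 h contralateral hemispheres, and 8.91 and 8.82 in the 48 h and 9.03 and 9.25 in the 72 h ipsilateral hemispheres. The 4 ipsilateral arrays stood clear of the other 6, and the hemispheres differed by 1.67 ± 0.117 (SE; adjusted p = 4.31e-05) in the 48 h and 2.21 ± 0.117 (SE; adjusted p = 3.81e-06) in the 72 h protocol. Ctsz, a carboxypeptidase, measured 7.71 and 8.16 in untreated brain, 8.33 and 8.33 in the 48 h and 8.27 and 8.52 in the 72 h contralateral hemispheres, and 9.33 and 9.37 in the 48 h and 10.33 and 10.51 in the 72 h ipsilateral hemispheres. It was 2.02-fold higher in the injured hemisphere at 48 h (log2 difference 1.01 ± 0.13, adjusted p = 0.000715) and 4.07-fold at 72 h (2.02 ± 0.13, adjusted p = 6.39e-06). Ctsh, an aminopeptidase of the cathepsin family, measured 6.56 and 6.46 in untreated brain, 6.76 and 6.91 in the 48 h and 7.01 and 7.05 in the 72 h contralateral hemispheres, and 7.63 and 7.9 in the 48 h and 8.7 and 9.11 in the 72 h ipsilateral hemispheres. All 4 injured samples exceeded the rest, with differences of 0.93 ± 0.135 (SE; adjusted p = 0.00144) and 1.88 ± 0.135 (SE; adjusted p = 1.3e-05). Ctsd, the main aspartic protease of the lysosome, gave 9.57 and 9.77 in untreated brain, 9.91 and 9.96 in the 48 h and 10.07 and 10.33 in the 72 h contralateral hemispheres, and 11.18 and 10.97 in the 48 h and 12 and 11.97 in the 72 h ipsilateral hemispheres. The groups did not overlap, and the differences were 1.14 ± 0.133 (SE; adjusted p = 0.000392) at 48 h and 1.78 ± 0.133 (SE; adjusted p = 1.53e-05) at 72 h.

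Lgmn, an asparaginyl endopeptidase that matures several cathepsins, measured 10.92 and 10.88 in untreated brain, 11.19 and 11.15 in the 48 h and 10.92 and 11.14 in the 72 h contralateral hemispheres, and 12.1 and 12 in the 48 h and 12.29 and 12.52 in the 72 h ipsilateral hemispheres, and its differences were 0.88 ± 0.124 (SE; adjusted p = 0.00121) and 1.38 ± 0.124 (SE; adjusted p = 4.95e-05). Ctss, the cathepsin that trims the invariant chain in antigen-presenting cells, was above background on the 4 ipsilateral arrays and on 0 of the other 6. Its values there were 6.18 and 6.65 in the 48 h and 6.35 and 6.95 in the 72 h ipsilateral hemispheres. It was thus at least 2.23-fold higher than contralaterally in each protocol (adjusted p = 0.000614 at 48 h and 0.000772 at 72 h). Ctss passed the detection filter only through the 4 arrays where it was high, so its p-values are not free of that selection. Ctsb, a broadly expressed cysteine protease, differed by 0.77 ± 0.108 (SE; adjusted p = 0.00121) at 48 h and 0.94 ± 0.108 (SE; adjusted p = 0.000231) at 72 h on its brightest probe, while its other probe gave 0.15 and 0.47 and did not pass. Tpp1, a tripeptidyl peptidase lost in a childhood neuronal storage disease, passed at 72 h alone with 0.41 ± 0.113 (SE; adjusted p = 0.0406). That call was lost without any of the 8 arrays of injured mice in turn, with adjusted p reaching 0.267. Ctsk, a collagen-degrading cathepsin best known from osteoclasts, did not pass. Its intensity was 6.4 and 6.63 in untreated brain, 6.45 and 6.62 in the 48 h and 6.61 and 6.31 in the 72 h contralateral hemispheres, and 6.74 and 6.93 in the 48 h and 6.69 and 7.22 in the 72 h ipsilateral hemispheres, with differences of 0.3 (adjusted p = 0.231) and 0.49 (adjusted p = 0.0816). The 4 ipsilateral arrays were the highest for Ctsk, but the WT array at 72 h exceeded the highest of the others only narrowly. Ctsa, a carboxypeptidase that stabilises Glb1 and Neu1, measured 8.42 and 8.63 in untreated brain, 8.01 and 8.42 in the 48 h and 8.64 and 8.19 in the 72 h contralateral hemispheres, and 7.94 and 7.71 in the 48 h and 8.84 and 8.53 in the 72 h ipsilateral hemispheres. Its 48 h injured hemispheres were the lowest of the 10 arrays, and neither difference passed (-0.39, adjusted p = 0.175 at 48 h, and 0.27, adjusted p = 0.389 at 72 h).

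Of the 9 genes of sugar-cleaving enzymes, the sulfatase included, 1 was higher at 48 h and 3 at 72 h, with medians of 0.00 and 0.27. Of all genes 12.7% were higher at 48 h and 10.3% at 72 h. The 48 h count lies near that share and is no result about these enzymes as a group. Naglu, which removes N-acetylglucosamine from heparan sulfate, was the one higher in both protocols. Its intensity was 6.2 and 6.22 in untreated brain, 6.48 and 6.35 in the 48 h and 6.59 and 7.03 in the 72 h contralateral hemispheres, and 7.13 and 7.12 in the 48 h and 7.7 and 7.95 in the 72 h ipsilateral hemispheres. The lowest ipsilateral array exceeded the highest of the others by a small margin, since the KO 72 h contralateral array stood at 7.03, and the differences were 0.71 ± 0.143 (SE; adjusted p = 0.00829) and 1.01 ± 0.143 (SE; adjusted p = 0.000979). The 48 h call was lost without the KO contralateral or the WT ipsilateral array of that protocol (adjusted p up to 0.0776). Hexa, the alpha subunit of beta-hexosaminidase, which degrades GM2 ganglioside, gave 8.75 and 8.83 in untreated brain, 8.71 and 8.76 in the 48 h and 9.17 and 8.8 in the 72 h contralateral hemispheres, and 9.13 and 8.77 in the 48 h and 9.96 and 9.61 in the 72 h ipsilateral hemispheres. Only at 72 h were both injured samples above all the others, with a difference of 0.8 ± 0.146 (SE; adjusted p = 0.00492), against 0.22 (adjusted p = 0.314) at 48 h. Without the KO 72 h contralateral array its adjusted p was 0.0577. Man2b1, the lysosomal alpha-mannosidase, differed by 0.47 ± 0.107 (SE; adjusted p = 0.016) at 72 h and by 0.1 (adjusted p = 0.515) at 48 h. The 72 h call was lost without the KO ipsilateral, KO contralateral or WT ipsilateral array of that protocol (adjusted p up to 0.127). Glb1 (beta-galactosidase), Gaa (the glycogen-degrading alpha-glucosidase), Gla (alpha-galactosidase), Neu1 (a sialidase) and Galns (a sulfatase, detected on 4 arrays) had differences between -0.3 and 0.27 in both protocols and none passed. Gusb, the beta-glucuronidase, did not pass on its brightest probe (0.16, adjusted p = 0.434 at 48 h, and 0.31, adjusted p = 0.163 at 72 h).

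Among the 6 genes of lipid breakdown and lipid transfer, 3 were higher in each protocol, beside 12.7% and 10.3% of all genes. The medians of the 6 were 0.24 and 0.41. Npc2 and Npc1 encode the soluble and the membrane-bound carrier that move cholesterol out of the lysosome. Npc2 measured 6.91 and 7.12 in untreated brain, 6.76 and 7.08 in the 48 h and 7.41 and 7.26 in the 72 h contralateral hemispheres, and 7.9 and 8.21 in the 48 h and 8.15 and 8.48 in the 72 h ipsilateral hemispheres. Its 4 ipsilateral values were the highest of the 10, and the hemispheres differed by 1.13 ± 0.137 (SE; adjusted p = 0.000502) and 0.98 ± 0.137 (SE; adjusted p = 0.00088). Npc1 gave -0.11 (adjusted p = 0.521) and 0.27 (adjusted p = 0.148) and did not pass. Lipa, the acid lipase that frees cholesterol from its esters, was higher by 0.63 ± 0.158 (SE; adjusted p = 0.0219) at 48 h and 0.81 ± 0.158 (SE; adjusted p = 0.00717) at 72 h. Asah1, the acid ceramidase, was higher by 0.49 ± 0.114 (SE; adjusted p = 0.0157) and 0.55 ± 0.114 (SE; adjusted p = 0.01). At 48 h both calls were lost without any of the 4 arrays of that protocol in turn (adjusted p up to 0.193 for Lipa and 0.14 for Asah1). At 72 h Lipa was lost without either KO array of the protocol (adjusted p up to 0.0903), and Asah1 without the KO ipsilateral or the WT contralateral array (up to 0.0936). Psap, the precursor of the saposins, differed by -0.01 and 0.09, and Smpd1, the acid sphingomyelinase, by -0.17 and -0.21, with no pass.

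The membrane proteins held both the largest difference and members that did not pass. Of 7 measured, 5 were higher in each protocol, beside 12.7% and 10.3% of all genes. The medians of the 7 were 0.84 and 1.01. Gpnmb, a transmembrane glycoprotein of pigment cells and of phagocytes, measured 6.89 and 6.72 in untreated brain, 7.01 and 7.6 in the 48 h and 7.41 and 7.89 in the 72 h contralateral hemispheres, and 9.12 and 9.28 in the 48 h and 11.52 and 11.76 in the 72 h ipsilateral hemispheres. The injured samples fell into a pair near 9 and a pair above 11, both above every other array. The difference was 1.89 ± 0.167 (SE; adjusted p = 9.73e-05) at 48 h, or 3.71-fold, and 3.99 ± 0.167 (SE; adjusted p = 1.64e-06) at 72 h, or 15.9-fold. Cd63, a tetraspanin of late endosomes and lysosomes, gave 10.01 and 10.25 in untreated brain, 9.83 and 10.14 in the 48 h and 9.98 and 10.22 in the 72 h contralateral hemispheres, and 11.31 and 11.42 in the 48 h and 11.64 and 11.96 in the 72 h ipsilateral hemispheres. Its groups were separate, with differences of 1.38 ± 0.108 (SE; adjusted p = 5.86e-05) and 1.7 ± 0.108 (SE; adjusted p = 6.35e-06). Laptm5, a lysosomal membrane protein of blood-derived cells and microglia, measured 10.46 and 10.72 in untreated brain, 10.65 and 10.75 in the 48 h and 10.66 and 10.91 in the 72 h contralateral hemispheres, and 11.58 and 11.5 in the 48 h and 12.29 and 12.16 in the 72 h ipsilateral hemispheres. Here too the 4 ipsilateral arrays were the highest, and the hemispheres differed by 0.84 ± 0.129 (SE; adjusted p = 0.00198) and 1.44 ± 0.129 (SE; adjusted p = 4.88e-05). Scarb2, the carrier of beta-glucocerebrosidase to the lysosome, was higher by 0.66 ± 0.112 (SE; adjusted p = 0.00352) and 1.01 ± 0.112 (SE; adjusted p = 0.000192), and the 48 h value missed the threshold without the KO 48 h ipsilateral array (adjusted p = 0.0555).

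Lamp1 and Lamp2 encode the most abundant glycoproteins of the lysosomal membrane, Lamp2 being also needed for chaperone-mediated autophagy. Lamp2 measured 8.82 and 8.71 in untreated brain, 9.03 and 8.93 in the 48 h and 8.86 and 8.97 in the 72 h contralateral hemispheres, and 10.04 and 10.08 in the 48 h and 9.68 and 10.0 in the 72 h ipsilateral hemispheres, with the ipsilateral arrays clear of the others and differences of 1.08 ± 0.129 (SE; adjusted p = 0.000471) and 0.93 ± 0.129 (SE; adjusted p = 0.000872). Lamp1 gave 11.2 and 11.32 in untreated brain, 11.34 and 11.41 in the 48 h and 11.3 and 11.39 in the 72 h contralateral hemispheres, and 11.25 and 11.19 in the 48 h and 11.66 and 11.73 in the 72 h ipsilateral hemispheres. At 48 h the injured samples were no higher than the rest, with a difference of -0.16 (adjusted p = 0.32), and at 72 h the 2 injured samples were the highest, but the difference of 0.35 did not pass (adjusted p = 0.0527). It passed in 8 of 20 alternatives, among them no background correction, detection on all 10 arrays and the fit with each hemisphere pair as a block (adjusted p = 0.0386). Mcoln1, the calcium channel TRPML1 of the lysosomal membrane, differed by -0.35 (adjusted p = 0.126) and -0.06 (adjusted p = 0.817), and the 48 h value passed as lower in 2 of 20 alternatives (adjusted p from 0.0286). Both measured genes of the proton pump, the catalytic subunit Atp6v1a and the accessory subunit Atp6ap1, were without a pass, at -0.08 and -0.09 at 48 h and 0.26 and -0.03 at 72 h.

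Lyz2, Grn and Creg1 make up the remaining contents. Lyz2 is the lysozyme gene of myeloid cells and resembles Lyz1 closely in sequence, and whether its probe separates them was not tested. Its intensity was 7.09 and 7.13 in untreated brain, 7.05 and 7.76 in the 48 h and 7.19 and 7.51 in the 72 h contralateral hemispheres, and 10.15 and 10.43 in the 48 h and 11.05 and 11.4 in the 72 h ipsilateral hemispheres. No other array came near the 4 ipsilateral ones, and the difference was 7.39-fold at 48 h (2.89 ± 0.148, adjusted p = 1.73e-05) and 14.6-fold at 72 h (3.87 ± 0.148, adjusted p = 1.02e-06). Grn encodes progranulin, which is cleaved to granulins in the lysosome. It measured 9.23 and 9.33 in untreated brain, 9.6 and 9.46 in the 48 h and 9.55 and 9.79 in the 72 h contralateral hemispheres, and 10.72 and 10.68 in the 48 h and 11.49 and 11.5 in the 72 h ipsilateral hemispheres, and the separated groups differed by 1.17 ± 0.12 (SE; adjusted p = 0.000196) and 1.82 ± 0.12 (SE; adjusted p = 7.5e-06). Creg1, a small glycoprotein of endosomes and lysosomes, was at background in untreated brain and gave 6.08 and 5.86 in the 48 h and 6.52 and 6.75 in the 72 h ipsilateral hemispheres. Its hemispheres did not differ beyond the error (-0.09, adjusted p = 0.687 at 48 h, and 0.23, adjusted p = 0.327 at 72 h).

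Ipsilateral tissue of the 2 protocols was then compared directly. Of the 37 genes, 13 were higher in the 72 h than in the 48 h ipsilateral hemispheres, 0 were lower and 24 did not pass, where 3.35% of all genes passed, 1.85% higher and 1.5% lower. The median difference was 0.35, against 0.01 over all genes. In 28 of the 37 genes both 72 h arrays lay above both 48 h arrays, as in 27.4% of all genes, and in 3 (Smpd1, Lamp2 and Atp6v1a) both lay below, as in 24.3%. Gpnmb had the largest difference, 2.44 ± 0.167 (SE; adjusted p = 0.000532) or 5.43-fold. The proteases Ctsh (1.14 ± 0.135, adjusted p = 0.0064), Ctsz (1.07 ± 0.13, adjusted p = 0.0064), Ctsd (0.91 ± 0.133, adjusted p = 0.0126) and Ctsa (0.86 ± 0.193, adjusted p = 0.0453) followed the same direction. So did Lyz2 at 0.93 (adjusted p = 0.0186), Grn at 0.79 (adjusted p = 0.0147) and Creg1 at 0.66 (adjusted p = 0.0419). Among the sugar-cleaving enzymes, Hexa was higher by 0.83 (adjusted p = 0.0243), Naglu by 0.69 (adjusted p = 0.0349) and Man2b1 by 0.47 (adjusted p = 0.0464). Of the membrane proteins, Laptm5 (0.69, adjusted p = 0.0281) and Lamp1 (0.48, adjusted p = 0.0447) joined Gpnmb, and each of the 13 differed in the same direction in both genotypes. Of the 13, Creg1, Ctsa and Lamp1 passed in neither hemisphere comparison on their brightest probes. No gene of the lipid enzymes or the proton pump passed, and Ctsc (0.28, adjusted p = 0.206), Ctss (0.24, adjusted p = 0.402), Npc2 (0.26, adjusted p = 0.294) and Ctsk (0.13, adjusted p = 0.695) had differences that did not.

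These calls depended on the scaling and on single arrays. Leaving out any 1 of the 4 ipsilateral arrays left 1 array in its group. Fewer of the 37 genes then passed, and fewer of all genes as well, while the 13 kept their sign. A fit of the 4 ipsilateral arrays alone left 1 gene higher, where 0.0214% of all genes passed, against 3.35% as reported. Centring each array on its median instead of quantile-normalizing them shifted the all-gene median from 0.01 to -0.26. Under it 6 of the 37 were higher (Gpnmb, Ctsh, Ctsz, Ctsd, Lyz2 and Grn) and 3 lower (Atp6v1a, Lamp2 and Smpd1), where 18.5% of all genes passed. Gpnmb passed in all 18 alternatives, with differences from 2.14 to 2.50. The microglial marker sum given above was also larger in the 72 h ipsilateral tissue, and Fcrls and Siglech, 2 of the 9 measured markers, were higher there, and their part in the result was not tested.

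**Figure D3:**
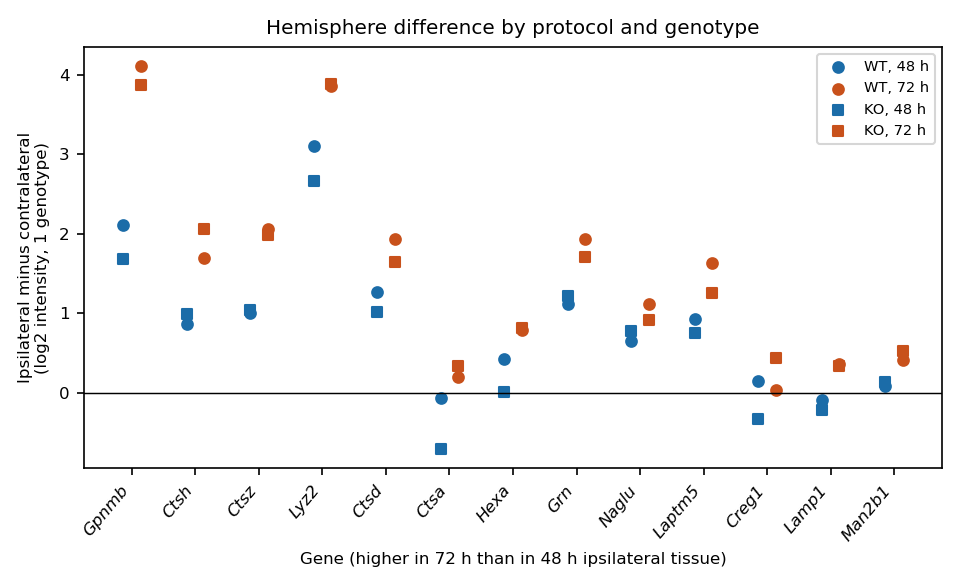
For the 13 genes that were higher in 72 h than in 48 h ipsilateral tissue, each point is the ipsilateral minus contralateral difference (log2 intensity) of 1 genotype in 1 protocol, with circles for WT and squares for KO, blue for 48 h and orange for 72 h. For Gpnmb the 2 orange points lie near 4 and the 2 blue points near 2.

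Each protocol also has contralateral tissue of its own, so the hemisphere differences themselves were compared. Under this test 0 of the 37 genes passed, as did 0% of all 9352 genes, and 14 of the 37 had an unadjusted p under 0.05 in limma, as had 1018 of all genes. The 72 h difference was numerically the larger in 32 of the 37 genes, with a median of 0.32 against 0.00 over all genes. Gpnmb came closest, with 2.1 ± 0.237 (SE; adjusted p = 0.0508), and it passed in 9 of 18 alternatives, with adjusted p from 0.000747 to 0.457, and of 0.0236 with each hemisphere pair as a block. Ctsz (1.01, adjusted p = 0.145), Lyz2 (0.99, adjusted p = 0.194) and Ctsh (0.94, adjusted p = 0.172) were next in size. Lamp1, with 0.51 (adjusted p = 0.262), and Ctsd, with 0.64 (adjusted p = 0.256), did not pass, and the values of Ctss, Npc2 and Lamp2 were negative, from -0.15 to -0.1. Over the 37 genes the 95% confidence intervals of this difference reached from -0.60 for Ctss to 2.63 for Gpnmb.

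The study set mice without Cd93 against WT mice. Over all 5 conditions 0 of the 37 genes were higher or lower in KO than in WT, while 0.535% of all genes were higher and 0.631% lower. In limma 8 of the 37 had an unadjusted p under 0.05, as had 1671 of all genes. Lyz2 differed by 0.34 (adjusted p = 0.13), Atp6v1a by 0.28 (adjusted p = 0.219), Cd63 by 0.25 (adjusted p = 0.13), Ctsb by 0.18 (adjusted p = 0.203) and Scarb2 by 0.17 (adjusted p = 0.251), the largest among genes with the same sign in all 5 conditions, and none passed. A second Atp6v1a probe, detected on all 10 arrays, gave -0.0006, and a second Ctsb probe 0.10. KO exceeded WT in all 5 conditions in 6 genes and fell below it in 1, Smpd1, patterns found in 7.92% and 8.34% of all genes. The 95% confidence intervals of the 37 genes lay between -0.40 (Hexa) and 0.55 (Lyz2), so that a genotype difference of 1 on the log2 scale lay outside each of them. Ctsa and Ctsz lie on chromosome 2, as does Cd93, and gave -0.08 (adjusted p = 0.783) and 0.18 (adjusted p = 0.28). By condition, the median KO minus WT difference was 0.10 in untreated brain, 0.10 and 0.11 in the 48 h and 72 h contralateral hemispheres, and -0.03 and 0.14 in the 48 h and 72 h ipsilateral hemispheres.

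**Figure D4:**
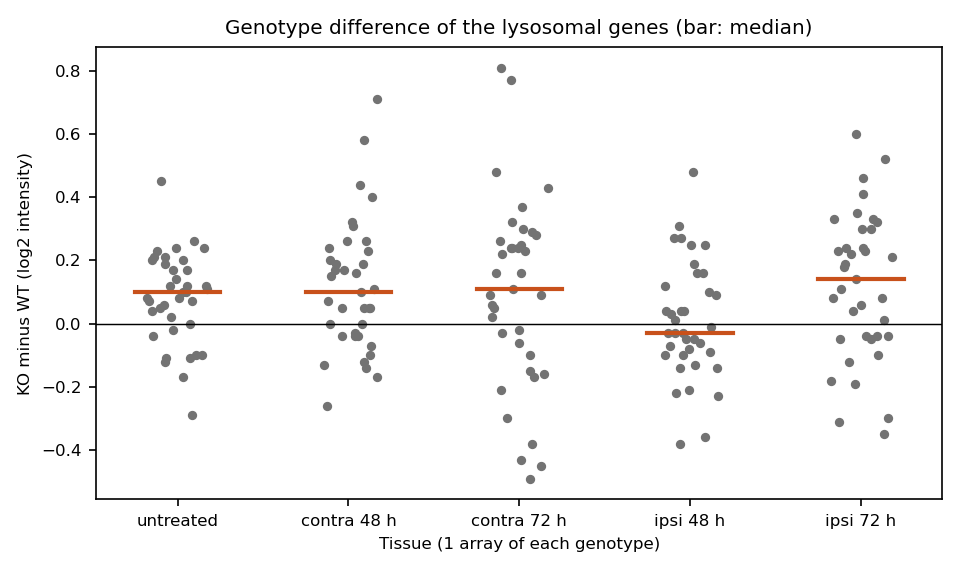
Each point is the KO minus WT difference (log2 intensity) of 1 of the 37 genes between 1 array of each genotype, by tissue, and the bar is the median over the genes. The medians lie between -0.03 and 0.14, and points fall on both sides of 0 in every tissue.

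Whether the genotype difference was another in injured tissue was tested with a term for the ipsilateral arrays of KO mice. Of the 37 genes 0 passed, as did 0% of all genes, and 0 of the 37 had an unadjusted p under 0.05 in limma, against 359 of all genes. The largest terms among genes with 1 sign in both ipsilateral tissues were 0.37 for Ctss, 0.32 for Ctsk, -0.32 for Ctsa, -0.31 for Gusb and 0.31 for Ctsh, each with adjusted p = 0.998. For Ctss the KO exceeded the WT array by 0.47 in 48 h and 0.60 in 72 h ipsilateral tissue. Intervals of 95% for this term stayed between -0.87 (Ctsa) and 0.78 (Ctsk). For Gpnmb the term was -0.1 and for Lyz2 -0.05.

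In contralateral hemispheres compared with untreated brain, 1 of the 37 genes was higher and 0 were lower, against 1.2% and 0.235% of all genes. This gene was Creg1, at background on both untreated arrays. The contralateral hemispheres gave 5.93 and 6.19 in the 48 h protocol and 6.49 and 6.32 in the 72 h protocol. Because Creg1 passed the detection filter only through arrays of injured mice, its p-value is not free of that selection. It was at least 1.56-fold higher (adjusted p = 0.0407), and the call was lost on leaving out any array except the WT 48 h contralateral one, with adjusted p over all alternatives from 0.034 to 0.344. Gpnmb differed by 0.68 (adjusted p = 0.0584), Atp6v1a by -0.51 (adjusted p = 0.137), Ctsc by 0.49 (adjusted p = 0.0527), Ctsz by 0.43 (adjusted p = 0.11) and Lyz2 by 0.27 (adjusted p = 0.351), and these did not pass. Atp6v1a passed as lower without the KO 72 h contralateral array (-0.68, adjusted p = 0.0386), and Gpnmb as higher in 6 of 17 alternatives.

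For 14 of the 37 genes more than 1 probe was detected, which gives 18 further probes. In the 48 h comparison 14 of the 18 had the sign of the brightest probe and in the 72 h comparison 15. In KO against WT 10 of the 18 had that sign. Gpnmb had 3, and the further 2, detected on 4 and 2 arrays, were at background contralaterally. These probes passed the detection filter without any contralateral array, so their differences are not free of that selection. They were at least 13.9-fold and 3.9-fold higher in the injured hemisphere at 72 h, and in 72 h against 48 h ipsilateral tissue the 3 probes were higher by 2.44, by 2.84 and, as a bound, by at least 4.0-fold. Gusb did not pass on its brightest probe, but the other probes, detected on 7 and 8 arrays, were higher by 0.61 and 0.69 at 48 h and by 1.40 and 1.54 at 72 h, and by 0.88 and 0.85 between the ipsilateral tissues (adjusted p from 0.000163 to 0.0382). Lamp2 was higher on 2 of its 3 probes, with the further probe at 1.01 and 1.23, and the remaining one gave 0.07 and -0.05. Lamp2 is known to be spliced into several isoforms, and which of them each probe reads is not given in the sources used here. The second Ctsa probe gave 0.21 at 48 h and 0.96 at 72 h (adjusted p = 0.00787), and the second Asah1 probe 0.21 and 1.02 (adjusted p = 0.0127 at 72 h).

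**Figure D5:**
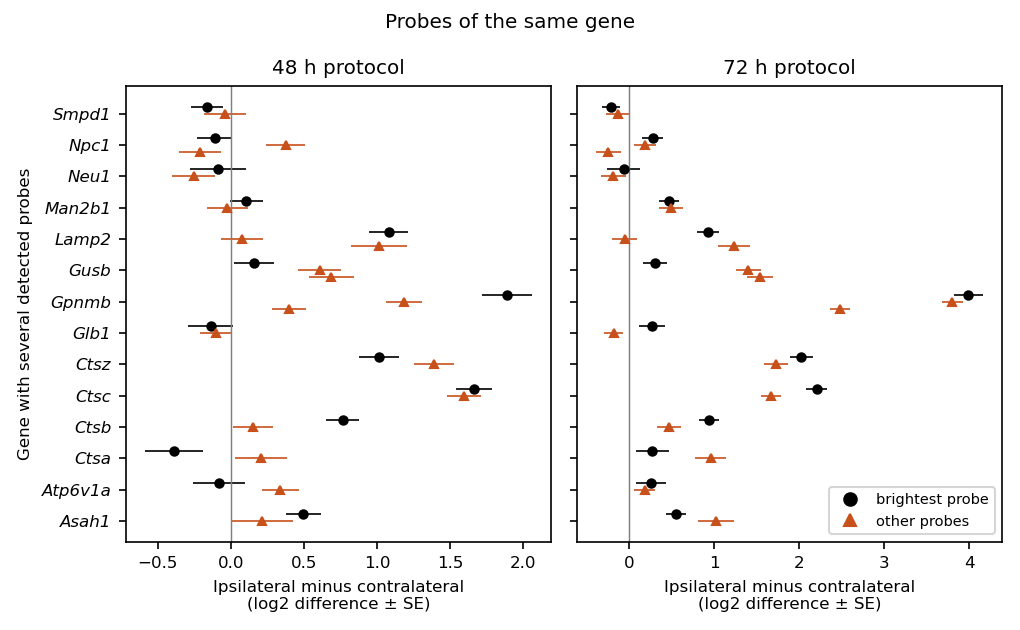
For each of the 14 genes with several detected probes, black circles are the brightest probe and orange triangles the others, as the ipsilateral minus contralateral difference (log2) with standard error bars, at 48 h on the left and 72 h on the right. The 2 triangles of Gusb lie to the right of its circle in both panels, and 1 triangle of Lamp2 lies near 0. Triangles of Ctsc, Gpnmb and Glb1 include probes at background contralaterally, for which the plotted difference is no bound.

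The promoter motifs shown above can be set beside these values. Of the 10 measured genes with the E-box core, 3 were higher ipsilaterally at 48 h and the same number at 72 h (Ctsd, Lgmn and Naglu), and 4 were higher in 72 h than in 48 h ipsilateral tissue (Ctsa, Ctsd, Lamp1 and Naglu). Among all 32 measured genes with a listed promoter the counts were 15, 18 and 12. Lamp1, with 4 cores, gave -0.16 and 0.35, and Mcoln1, with 2, gave -0.35 and -0.06, whereas Ctsd, also with 2, gave 1.14 and 1.78. Of the 4 genes with the M-box, Ctss and Grn were higher at 48 h, Tpp1 joined them at 72 h and Gla did not pass. Among the 4 with the PU.1 motif, Ctsc and Ctss were higher in both protocols, and Gla and Gusb were not on their brightest probes. Gpnmb, Lyz2, Cd63 and Ctsz carry none of the 4 motifs in these windows.

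Other genes of the pathway were read from further lists. Of 21 measured uptake receptors and oxidase and trafficking genes of the phagosome, 12 were higher and 1 lower (Rab5a) ipsilaterally at 48 h. At 72 h 14 were higher and 0 lower, and 4 and 0 in the comparison of ipsilateral tissues. Shares of all genes were 12.7% higher and 8.06% lower at 48 h, 10.3% and 4.13% at 72 h, and 1.85% and 1.5% between ipsilateral tissues. The Fc receptor Fcgr4 differed by 2.55 ± 0.252 (adjusted p = 0.000153) at 48 h and 3.43 ± 0.252 (adjusted p = 1.48e-05) at 72 h, and Fcgr2b, the inhibitory one, by 1.95 and 2.33. Cd14, a co-receptor for bacterial lipopolysaccharide, gave 2.17 and 1.78, and Cyba, a membrane subunit of the phagocyte oxidase, 1.59 and 2.31. Ncf4, a cytosolic subunit of that oxidase, was at background contralaterally and at least 2.82-fold and 3.62-fold higher. It passed the detection filter without any contralateral array, so its differences are not free of that selection. Between the ipsilateral tissues, Trem2, a lipid-sensing receptor of microglia, was higher at 72 h by 1.43 ± 0.135 (adjusted p = 0.00506), its adaptor Tyrobp by 1.24 ± 0.206 (adjusted p = 0.0225), the integrin subunit gene Itgb5 by 0.9 ± 0.112 (adjusted p = 0.0064) and Cyba by 0.64.

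The remaining lists hold 4 to 22 measured genes each, and their counts stand beside shares of all genes of 12.7% higher and 8.06% lower at 48 h and 10.3% and 4.13% at 72 h. Several lie near those shares, so they are given for the named genes and not as a result about the lists. Of 18 measured other hydrolases, 2 were higher (Hyal1 and Hgsnat) and 1 lower (Ctsf) at 48 h, and 3 higher at 72 h (Tcn2, Pla2g15 and Manba). Tcn2, a vitamin B12 carrier listed with them, differed by 0.89 ± 0.147 (adjusted p = 0.00279). Of 22 other membrane and activator proteins, 3 were higher and 5 lower at 48 h, and 3 and 1 at 72 h. Slc11a1, an iron and manganese transporter of the macrophage phagosome, was higher by 1.0 ± 0.127 (adjusted p = 0.00067) and 1.39 ± 0.127 (adjusted p = 5.32e-05), and Lamp5, a Lamp relative found in neurons, was lower at -0.65 and -0.51. Of 14 further proton pump subunits, Tcirg1, whose product is the a3 subunit used by osteoclasts and macrophages, was higher by 0.74 ± 0.127 (adjusted p = 0.00379) and 1.18 ± 0.127 (adjusted p = 0.000158), and Atp6v0e by 0.45 and 0.98, with Atp6v0a2 joining at 72 h. The other subunits passed in neither hemisphere comparison. Among 4 measured cathepsin inhibitors, Serpina3n, a serine protease inhibitor of reactive astrocytes, was higher by 1.69 ± 0.232 (adjusted p = 0.00103) and 2.07 ± 0.232 (adjusted p = 0.000195) and Cstb, the cystatin B gene, by 0.79 and 0.99, and Serpinb6a passed at 72 h. Of 19 genes of lysosome biogenesis and sorting, M6pr, a mannose 6-phosphate receptor, and Map1lc3b, an autophagosome protein, were higher at 48 h by 0.68 and 0.54, and none passed at 72 h. In the comparison of ipsilateral tissues, where 1.85% of all genes were higher and 1.5% lower, 2 of the other hydrolases were higher in the 72 h protocol and 1 lower, 2 and 0 of the other membrane proteins, 2 and 1 of the pump subunits, 1 and 0 of the inhibitors and 0 and 1 of the biogenesis genes. No gene of these lists passed in KO against WT.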

How the data were processed

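Summary intensities of 10 arrays, 1 per group, were used. The deposited intensity values are not normalized, per the file headers, with 1 detection value beside each. Per the labels' protocols, RNA was extracted with Trizol and labelled with the Ambion MessageAmp kit. The deposited detection p-value columns rise with intensity (rank correlation at least 0.996) and were therefore read as 1 minus p. The scanner software and any earlier filter are not given in the sources used here. The authors' deposited value table of intensity, quantile-normalized within 5 pairs of arrays (at least 99.99% of ranked values equal within 1% in a pair, at most 56.1% between pairs), served only as an alternative.

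Background correction (nec, offset 16), quantile normalization and log2 transformation used limma 3.58.1 under R 4.3.3. Among the 46373 probes, 29800 carried 1 gene name, 10 several and 16563 none, and 29746 were matched to RefSeq genes of GRCm38.p6, which also gave the promoters. The detection filter required p under 0.01 on 2 or more arrays and left 16067 probes. For each of the 9352 genes the brightest named probe was taken. A gene was at background in a group where no array of it passed that p. Bounds written as at least N-fold use, per array, the higher of the lowest detected signal and the gene's own. limma's lmFit and eBayes fitted 5 conditions plus genotype (4 residual degrees of freedom), and with a term for KO ipsilateral arrays 3. The same fit was also run on simulated data with independent normal errors and shifts added to the 72 h ipsilateral arrays. Those data held no array or genotype effects, so they are no check on the p-values given here. The number of arrays limits the precision, and p-values measure only the scatter between these arrays, which may be technical.

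The members and gene lists were chosen with earlier results of these data known. Named genes passed the threshold and had 1 sign in both genotypes, the 12 largest per hemisphere comparison and the 10 highest and lowest between ipsilateral tissues, and 5 each for contralateral against untreated tissue. For genotype, the 5 largest of 1 sign were named where fewer than 3 passed. Gpnmb, Lyz2, Cd68, Ctss, Ctsd, Ctsk, Lamp1, Atp6v0d2 and Cd93 were always named. Other pathway lists give counts and up to 4 genes, and any gene beyond this was chosen after its values were seen. Alternatives changed background correction, normalization, detection filter, probe choice, variance model and the arrays in the fit. Reading each probe on its own and a block for each hemisphere pair were added after seeing the data.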

Additional observations from a re-analysis of the deposited data

How the results depend on the processing

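The genes that passed in the hemisphere comparisons kept their sign in the alternatives run, whereas 14 of the 19 that did not pass at 48 h and 8 of 16 at 72 h took the opposite sign in at least 1. In the 48 h comparison 15 to 18 genes passed when 1 array was left out and 17 to 23 under the other settings, and in the 72 h comparison 17 to 21 and 21 to 24. The 23 came with median centring, under which 52.7% of all genes passed, against 20.7% as reported. Genes passing as lower at 48 h were Ctsl with no detection filter, Mcoln1 in a fit of the 4 arrays of that protocol alone, and Ctsa and Mcoln1 in the table deposited by the authors, which was fitted with each hemisphere pair (1 genotype in 1 protocol) as a block. That block on the reported values, added after seeing the data, gave 18 genes at 48 h, 22 at 72 h and 1 between the hemisphere differences, adding Lamp1 and Gpnmb to the calls as reported and losing none. The labels do not say whether both hemispheres came from 1 animal. Median centring moved the median of all genes from -0.02 to 0.43 at 48 h and from -0.05 to 0.07 at 72 h. Between ipsilateral tissues, 3.35% of all genes passed as reported, 0.883% with no detection filter and 0.0214% from the 4 ipsilateral arrays alone. The comparison of ipsilateral tissues was the least stable. It gave 13 genes as reported, 8 with no detection filter, 1 from the 4 ipsilateral arrays alone and 1 to 11 with 1 array left out. Between the hemisphere differences, 0 genes passed as reported and 1, Gpnmb, passed with no background correction, with an offset of 50, with detection on all 10 arrays, with the mean of all probes and with a variance trend, and 0 to 1 with 1 array left out. For KO minus WT the count was 0, and 1 (Cd63) with a variance trend, while the term for KO ipsilateral arrays gave 0 throughout. Contralateral against untreated tissue gave 1 gene, 4 with median centring, 0 with no detection filter, 2 with detection on all 10 arrays, 2 with the mean of all probes, 4 with a variance trend and 0 to 1 with 1 array left out, the 1 being Creg1, Gpnmb or Atp6v1a (lower). The cause of these moves was not tested. For genes named in a hemisphere comparison, 13 of 359 values at 48 h and 17 of 419 at 72 h missed the threshold, as did 79 of 233 between ipsilateral tissues, and none of these values changed sign. With 1 array a group, the replicate numbers of the labels pair nothing further. A gene with 1 probe has no check of its probe, and genes near background have only a bound.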

Other observations

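Phagocyte genes outside the 40 were also higher in the contralateral hemisphere than in untreated brain. Of the 21 measured uptake receptor and oxidase genes, 5 were higher and 0 lower there, against 1.2% and 0.235% of all genes. Fcgr4 was at least 1.74-fold, Cd14 at least 1.77-fold and Fcgr2b at least 1.64-fold higher, being at background in untreated brain. Those genes passed the detection filter only through arrays of injured mice, so their p-values and their place among the 5 are not free of that selection. Fcgr3 and Cyba differed by 0.73 (adjusted p = 0.0368) and 0.59 (adjusted p = 0.0433) on the log2 scale. The astrocyte gene Gfap differed by 1.26 (adjusted p = 0.00457) and Serpina3n by 2.0 (adjusted p = 0.00439) in the same comparison. Of the 9 measured astrocyte markers only Gfap passed, 4 were positive, and the median of the list was -0.03. These p-values are from limma, over all 9352 genes. None of these 7 genes passed without the KO untreated array, when adjusted p was 0.122 to 0.375 and 3 genes passed in all against 134, or with no detection filter (0.0653 to 0.156), and none changed sign in the alternatives run. In the other direction, the oligodendrocyte gene Opalin differed by -0.77 (limma adjusted p = 0.0159, and 0.0733 with no detection filter). Like the 7 genes, Opalin did not pass without the KO untreated array. Of the 11 measured oligodendrocyte markers only Opalin passed, 5 were positive, and the median of the list was -0.08. Of the 9 measured markers of resting microglia 0 passed. The labels name no sham-operated group, so surgery and occlusion cannot be told apart in this comparison.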
